A study of Mus musculus with 10 samples.

Results

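Microtubule-associated proteins and stathmins were followed in the hippocampus of wild-type mice and of mice with a conditional knockout of DLK (dual leucine zipper kinase, gene Map3k12). The 10 member genes were Map1a, Map1b, Map2, Mapt, Stmn1, Stmn2, Stmn3, Stmn4, Gap43 and Dclk1, named as substrates of the kinase JNK and as proteins of axon growth. Every array probe whose RefSeq accession belongs to one of these genes was taken, which gave 19 of the 39429 probes and 10 of the 20144 gene symbols on the array. In the sample channel all 19 stood well above background on each of the 10 arrays, so the filter on dim probes removed none.

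Both groups were adult mice kept on a tamoxifen diet for 3 weeks, labelled DLK wild-type (WT, 5 mice) and DLK conditional knockout (cKO, 5 mice). Hippocampal RNA of each mouse carried Cy5 and was read on its own 2-colour Agilent array against Universal mouse reference RNA carrying Cy3. The sources used here do not give strain, sex, age in weeks, the recombinase, the cells it acts in or the deleted exons. Values are log2 ratios of sample over reference and differences are cKO minus WT. A call is an adjusted p under 0.05 in limma's moderated test with Benjamini-Hochberg adjustment over all features, 23774 with 1 probe per gene or 28682 with every kept probe. The labels name 1 mouse per array, and p-values measure the spread between these mice.

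Microtubules carry transport along axons and dendrites, and their stability is set by proteins that bind them. Structural microtubule-associated proteins (MAPs) such as tau and MAP2 bind along the polymer and stabilise it, whereas stathmins bind free tubulin dimers and favour disassembly. DLK is a neuronal kinase that acts on JNK through mitogen-activated protein kinase kinases, which are unrelated to the microtubule protein MAP2. JNK phosphorylates several of the MAPs and stathmins, which changes how they bind tubulin. That regulation acts on the protein, and the arrays measured RNA.

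Map3k12 itself was lower in every cKO mouse than in every WT mouse. Mean log2 ratios of 1.93 ± 0.19 (SD, n = 5, WT) and 0.51 ± 0.24 (SD, n = 5, cKO) gave a difference of −1.41 (SE 0.12, limma adjusted p = 0.00098, exact two-sided permutation p = 0.00794). The call was lost with plain background subtraction, with the Cy5 channel alone, with all spots in the background fit and within slide 2. Arrays had median Cy5 signals of 146 to 202, detected 69.6% to 76.1% of probes and correlated with each other at 0.980 to 0.996. The arrays lay on 3 slides, with 4 cKO mice on slide 1, 3 WT mice and cKO replicate 2 on slide 2 and 2 WT mice on slide 3. Genotype within a slide therefore rests on slide 2 and on 1 cKO mouse.

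None of the 10 member genes differed between genotypes beyond the spread between mice. The count called was 0 of 10 genes, where 0.00421% of all features were called, and 0 of 19 probes, where 0.0105% of all probes were called. At an unadjusted p under 0.05 the members gave 0 genes, against 3.86% of all features in either direction. They gave 2 of 19 probes, both of Mapt and above 0, against 3.82% of all probes in either direction and 2.78% higher in cKO. No probe that stands for a gene separated the genotypes, as 0.774% of features did in either direction and 0.53% with all cKO mice higher. All 19 probe differences lay above 0 as reported, as did 54.6% over all probes, and 7 of 19 did with median centring. All 10 differences lay above 0 as reported, between 0.00 for Dclk1 and 0.13 for Map2 with a median of 0.08, but only 3 of 10 did with median centring of the arrays in place of loess, 4 of 10 with scaling between arrays, and 5 of 10 with the Cy5 channel alone or with slide as a block. Over all features the median difference was 0.01 and 54.7% lay above 0. Median centring moved the median of all features to −0.06, beside −0.01 for the members. No direction is therefore given for these genes. The 95% intervals, which cover the spread between mice in a fit without slide, reached from 0.803-fold to 1.28-fold for Map1b, the widest, and from 0.978-fold to 1.16-fold for Mapt. Other settings gave values outside these intervals, such as −0.22 for Dclk1 with slide as a block and 0.39 for Map2 when every spot entered the background fit.

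**Figure D1:**
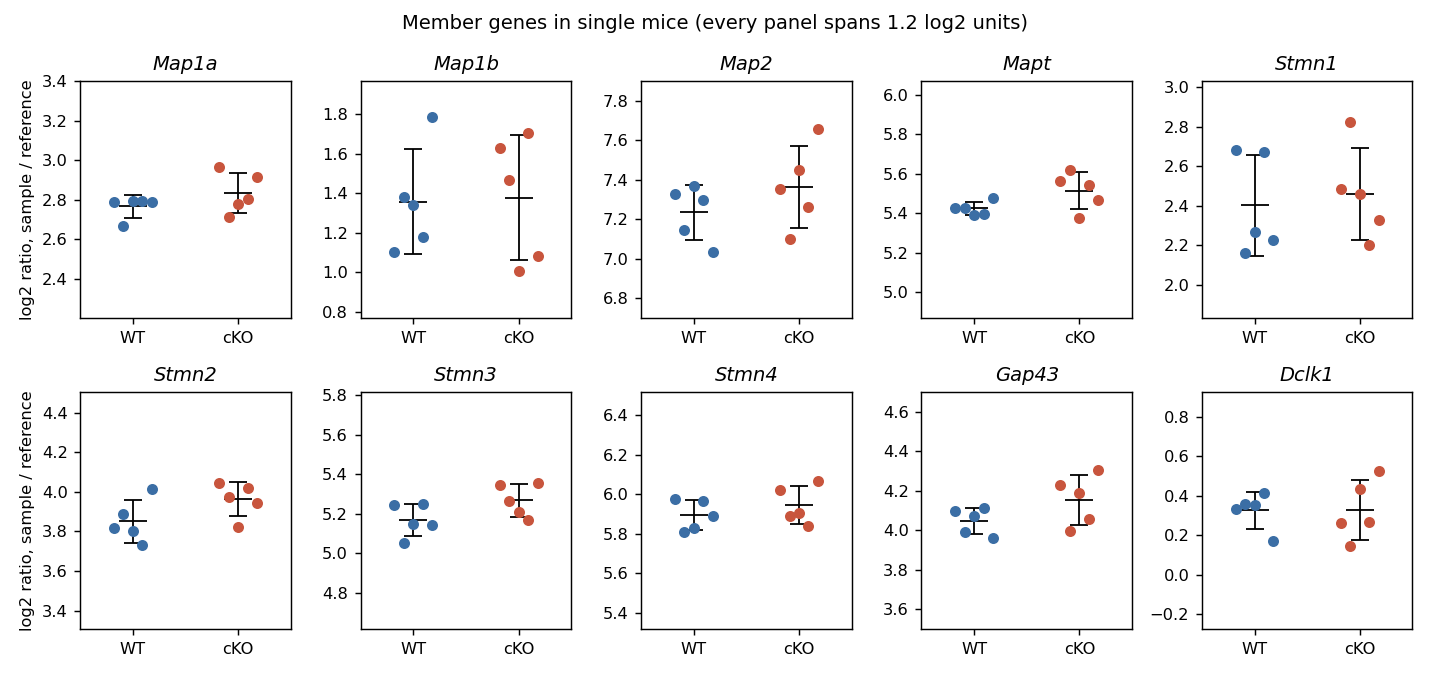
Log2 ratio of sample over reference for the probe that stands for each of the 10 member genes, with 1 point per mouse and the mean ± SD of 5 WT (blue) and 5 cKO (red) mice; every panel spans the same range of log2 units. The groups overlap in all 10 panels, and the points spread most in the panels of Map1b and Stmn1.

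Among the structural MAPs, Mapt encodes tau, the MAP of axons, and has 3 probes, all filed under transcript NM_001038609. The probe A_55_P2100155 read 4.47, 4.42, 4.45, 4.49 and 4.46 in WT replicates 1 to 5 and 4.56, 4.54, 4.58, 4.59 and 4.81 in cKO replicates 1 to 5. Every cKO mouse was thus above every WT mouse at this probe, as was the case for 0.533% of all probes. Its difference was 0.16 (SE 0.06, unadjusted p = 0.0202) and did not pass (limma adjusted p = 0.999946). It kept its sign in all 26 alternatives, from 0.07 with scaling between arrays to 0.26 when no marked spot was removed before the background fit. The value 4.81 of cKO replicate 5 stood apart from the other 4, and without that mouse the difference was 0.11.

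The other Mapt probes overlapped between genotypes. At A_55_P1954486 WT mice ranged from 4.39 to 4.55 and cKO mice from 4.53 to 4.58, with 2 cKO mice above all WT mice and a difference of 0.11 (SE 0.05, unadjusted p = 0.0477). Its sign turned, to −0.01, when Cy5 was used without Cy3. At A_55_P2100149, which stands for the gene, WT mice ranged from 5.39 to 5.48 and cKO mice from 5.38 to 5.62, with a difference of 0.09 (SE 0.06). It was −0.0040 with median centring and −0.02 with scaling between arrays. Neither probe passed the threshold. Over the 10 mice A_55_P2100155 did not follow A_55_P2100149, with Pearson's r = 0.22 (permutation p = 0.562) and r = −0.37 after genotype means were removed. For A_55_P1954486 and A_55_P2100149 r was 0.72 (permutation p = 0.0220), and 0.52 after genotype means were removed. Oligodendrocytes also express Mapt. The 18 genes of the oligodendrocyte list had a median difference of 0.32, with 17 above 0 and 0 called. Of these genes 12 had an unadjusted p under 0.05, against 3.86% of all features. Their mean per mouse ranged from 2.81 to 3.28 in WT and from 3.28 to 3.57 in cKO mice, and their part in the Mapt values was not tested. In bulk tissue, more cells of a type and more RNA per cell cannot be told apart.

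Map2 encodes the dendritic MAP. The probe that stands for it, A_52_P22763, read 7.33, 7.15, 7.37, 7.30 and 7.03 in WT replicates 1 to 5 and 7.35, 7.10, 7.45, 7.26 and 7.66 in cKO replicates 1 to 5. cKO replicates 3 and 5 were above all WT mice, and the rest lay among them. The difference was 0.13 (SE 0.10, 95% interval −0.09 to 0.35). It turned to −0.16 with slide as a block, which compares cKO replicate 2 with the WT mice of slide 2, and the second Map2 probe, A_55_P2059307, had a difference of 0.08 (SE 0.08), which turned to −0.05 there. Cy3 signal of A_52_P22763 ranged from 128 to 162 over the arrays, near the median Cy3 signal per array, which was 131.5 to 141.5. A_52_P22763 was marked well above background in Cy3 on 10 arrays. Its difference was 0.39 when every spot entered the background fit, the highest value of any member gene in the 26 alternatives.

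Map1a encodes a MAP of mature neurons and Map1b its relative that is most abundant in growing axons. At A_66_P140452, which stands for Map1a, WT mice ranged from 2.67 to 2.80 and cKO mice from 2.71 to 2.96. The difference was 0.07 (SE 0.06), and it was 0.06 (SE 0.09) at the other Map1a probe. WT replicate 2, at 2.67, lay below 4 WT mice that read between 2.79 and 2.80. The difference of Map1a turned to −0.04 with slide as a block, to −0.07 for Cy5 by itself and to −0.02 with median centring.

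Map1b varied among mice of the same genotype more than any other member. The probe A_52_P360330 read 1.1006, 1.38, 1.34, 1.18 and 1.78 in WT replicates 1 to 5 and 1.63, 1.47, 1.01, 1.71 and 1.08 in cKO replicates 1 to 5. cKO replicates 3 and 5 lay below all WT mice and the other 3 cKO mice lay among them. WT mice averaged 1.36 ± 0.26 (SD, n = 5) and cKO mice 1.38 ± 0.32 (SD, n = 5). The difference was 0.02 (SE 0.16), within a residual SD of 0.29, which was larger than that of 97.1% of features. The second probe, A_55_P1964193, read 1.0996, 1.12, 1.0960, 1.11 and 1.46 in WT and 1.61, 1.38, 0.78, 1.44 and 0.76 in cKO mice, in the same order of replicates. WT replicate 5 and cKO replicates 1, 2 and 4 were the 4 highest mice at both probes, and cKO replicates 3 and 5 were the 2 lowest at both.

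Raw Cy5 signal of Map1b ranged over the 10 arrays from 588.5 to 1499 at A_52_P360330 and from 149 to 312.5 at A_55_P1964193, and Cy3 signal from 296.5 to 319 and from 67 to 84. Raw signals also carry the brightness of each array, so these ranges do not place the spread of the log ratio in a channel. The Map1b probes correlated over the 10 mice with Pearson's r = 0.90 (permutation p = 0.00081, adjusted over 9 probe pairs 0.00182) and Spearman's rho = 0.92 (permutation p = 0.00062). Without WT replicate 5 and cKO replicate 3, the mice farthest from the median, r was 0.87. Over 4 other scalings r stayed between 0.87 and 0.93. After slide means were removed, which pools the 3 slides, r was 0.93 for Map1b. Slides held 4, 4 and 2 arrays, too few for a correlation within a single slide, and the probes share RNA, labelling and array.

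**Figure D2:**
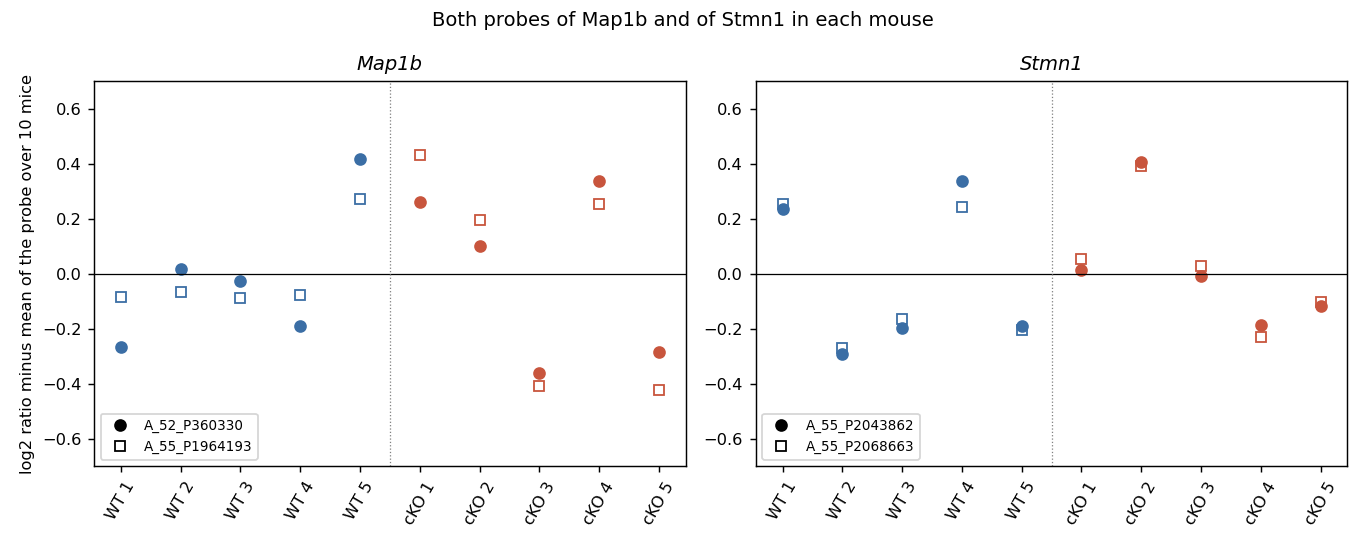
Log2 ratio minus the probe's mean over 10 mice for both probes (filled circles and open squares) of Map1b and of Stmn1, with mice on the horizontal axis, WT in blue and cKO in red. The 2 symbols of a mouse lie at most 0.18 apart for Map1b and 0.094 for Stmn1, while deviations span −0.42 to 0.43 and −0.29 to 0.41.

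Marker and pathway lists were set beside Map1b, with no test, and those named here were picked after their values were seen. The 3 mice with the highest Map1b, WT replicate 5 and cKO replicates 1 and 4, also had the 3 highest means of the dentate granule cell list, at 3.18, 3.14 and 3.27, where the other mice read 2.77 to 3.07. cKO replicate 2, the next highest for Map1b, had the lowest dentate granule mean of all 10 mice, 2.77. WT replicate 5 and cKO replicates 1 and 4 also had the 3 highest means of the growth cone list, at 2.18, 2.20 and 2.18, with the others at or below 2.13. Those 3 mice and cKO replicate 2 had the highest means of 2 broader lists given below. For microtubule regulators they read 1.48 to 1.53, with the others at or below 1.43. For kinases and phosphatases that act on MAPs they read 2.65 to 2.72, with the others at or below 2.64. The astrocyte list was highest in cKO replicates 5 and 3, at 4.92 and 4.78, where Map1b was lowest. The part of cell composition in the Map1b values was not tested.

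Among the stathmins, Stmn1 varied most between mice. Stmn1 encodes stathmin, which is also abundant in dividing and newborn cells. Its probe A_55_P2068663 read 2.68, 2.16, 2.27, 2.67 and 2.23 in WT replicates 1 to 5 and 2.48, 2.82, 2.46, 2.20 and 2.33 in cKO replicates 1 to 5. WT replicates 1 and 4 and cKO replicate 2 were high, and the other 7 mice lay between 2.16 and 2.48. The difference was 0.06 (SE 0.13) within a residual SD of 0.24, larger than that of 93.3% of features. The second probe, A_55_P2043862, was high in the same 3 mice, at 1.36, 1.46 and 1.53, with the others at 0.83 to 1.14. Both probes correlated with r = 0.99 (permutation p = 2e-05, adjusted over 9 pairs 0.00018) and rho = 0.94 (permutation p = 0.00023), and with r = 0.97 without WT replicate 1 and cKO replicate 2. Over 4 other scalings r stayed between 0.97 and 0.99.

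The 3 mice with high Stmn1 were hybridised on slide 2, whose remaining array, WT replicate 2, read the lowest of all. Slide, tested beside genotype, had an unadjusted p of 0.0386 for Stmn1 (limma adjusted p = 0.855). Slide was called for 0 features. Cy5 signal of A_55_P2068663 ranged from 81335.5 to 129035 and Cy3 signal from 20221 to 23812, with no saturated spot. The newborn neuron list read 1.66, 1.77 and 1.73 in the 3 mice with high Stmn1 and 1.75 to 1.91 in the others. Of those 3 mice, 2 had its lowest values. The part of newborn cells in the Stmn1 values was not tested. With slide as a block the difference of Stmn1 was 0.32, and with median centring it was −0.05.

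Stmn2 encodes SCG10, the stathmin of growing axons and growth cones. Its 1 probe ranged from 3.73 to 4.02 in WT mice and from 3.82 to 4.05 in cKO mice. The difference was 0.11 (SE 0.07, 95% interval −0.03 to 0.25, limma adjusted p = 0.999945). Stmn2 was the only member gene with a difference above 0 in all 26 alternatives, from 0.01 with median centring to 0.16 with slide as a block, and it passed in 0 of them.

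Stmn3 encodes SCLIP, a neuronal stathmin bound to membranes. It ranged from 5.05 to 5.25 in WT and from 5.17 to 5.36 in cKO mice, with 3 cKO mice above all WT mice. The difference was 0.10 (SE 0.06), and it was −0.0069 with median centring and −0.0050 with scaling between arrays. Stmn4 encodes RB3, the stathmin of mature brain, and its probes A_55_P2045642 and A_51_P194249 both had a difference of 0.05 (SE 0.06). The first ranged from 5.81 to 5.98 in WT and from 5.84 to 6.07 in cKO mice. With the Cy5 channel alone the Stmn4 probes turned to −0.16 and −0.19. On cKO replicate 5 the log ratio of A_55_P2045642 was the highest of all mice, at 6.07, while its Cy5 signal, 60789.5, was the lowest and its Cy3 signal, 982.5, was the lowest too.

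**Figure D3:**
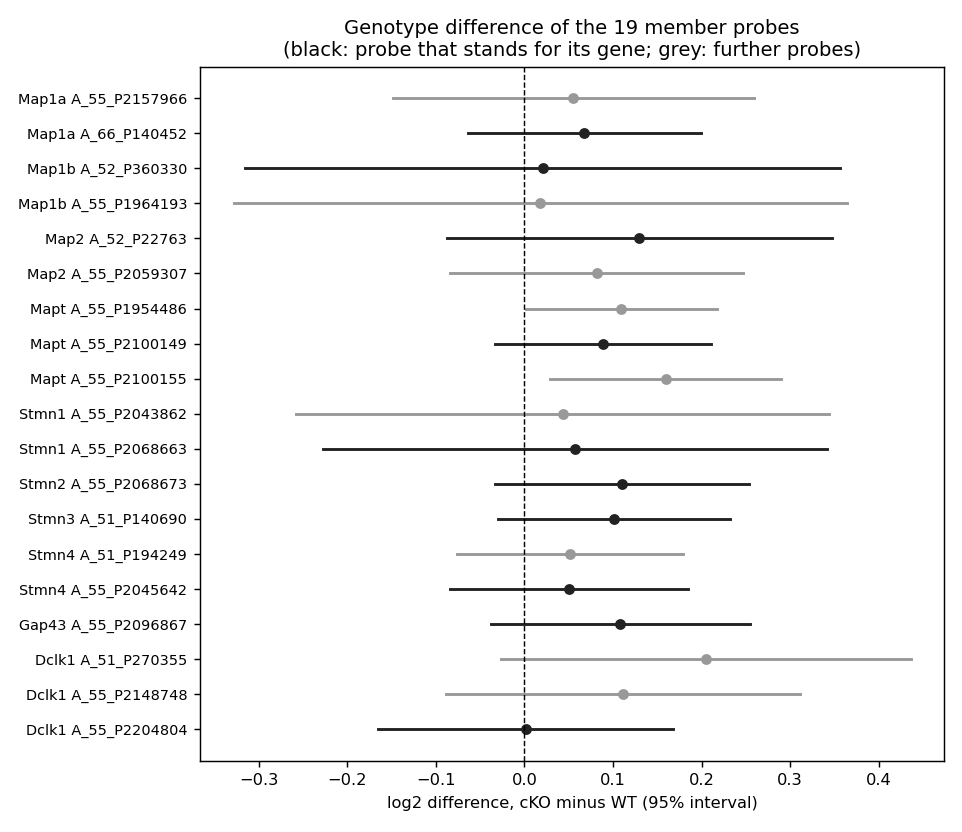
Difference in log2 ratio, cKO minus WT, with its 95% interval for each of the 19 member probes, 5 mice per genotype; black marks the probe that stands for its gene and grey the further probes. All points lie at or above 0, and 17 of the 19 intervals include 0; those of the Mapt probes A_55_P2100155 and A_55_P1954486 do not.

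Gap43 encodes a membrane protein of growth cones and presynaptic endings that is raised in regrowing axons. Its 1 probe read 4.10, 3.99, 4.07, 4.11 and 3.96 in WT replicates 1 to 5 and 4.23, 3.99, 4.19, 4.06 and 4.30 in cKO replicates 1 to 5. cKO replicates 1, 3 and 5 were above all WT mice and the other 2 were among them. The difference was 0.11 (SE 0.07, 95% interval −0.04 to 0.25). Cy5 signal alone put it at −0.08, and slide as a block at −0.07.

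Dclk1 encodes doublecortin-like kinase 1, which joins a microtubule-binding doublecortin domain to a kinase domain, and its transcripts start at more than 1 promoter. The probe that stands for Dclk1, A_55_P2204804, filed under NM_001111053, leads in mean intensity over both channels, while A_51_P270355 was brighter in Cy5, at 4289 to 9757.5 against 1779 to 2134. A_55_P2204804 read 0.33, 0.36, 0.35, 0.41 and 0.17 in WT replicates 1 to 5 and 0.26, 0.15, 0.44, 0.26 and 0.52 in cKO replicates 1 to 5. Its difference was 0.00 (SE 0.08, 95% interval −0.17 to 0.17). The probe A_51_P270355, filed under NM_019978, read 4.14, 3.88, 3.79, 3.98 and 4.30 in WT and 4.17, 4.40, 4.36, 4.23 and 3.95 in cKO mice, in the same order. cKO replicates 2 and 3 were above all WT mice, and the difference was 0.20 (SE 0.11, unadjusted p = 0.0773). It kept its sign in all 26 alternatives, from 0.12 with median centring to 0.40 with slide as a block. The probe A_55_P2148748, also NM_001111053, had a difference of 0.11 (SE 0.09), which turned to −0.11 with slide as a block. Over the 10 mice A_51_P270355 and A_55_P2204804 had r = −0.55 (permutation p = 0.0985, adjusted p 0.148) and rho = −0.52 (permutation p = 0.133), which did not pass.

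The Dclk1 gene is listed with 2 start sites in the RefSeq promoter table of build GRCm38.p6. The table held promoters for 5 of the 10 members, and those of Dclk1, Map1b and Map2 are shown. Dclk1 was chosen because its probes are filed under different transcripts, though their positions in these were not available. Map1b and Map2 were chosen because they had the widest intervals among the MAPs. Each is the 250 bases before the start site, 5′ to 3′ on the strand of the gene. Capitals mark matches on either strand to the AP-1 motif TGANTCA, to the CRE motif TGACGTCA, both bound by factors of the Jun and ATF families that JNK acts on, to the GC box GGGCGG, to CCAAT or to TATAAA.
Dclk1 first start, chr3:55242114-55242363, plus strand: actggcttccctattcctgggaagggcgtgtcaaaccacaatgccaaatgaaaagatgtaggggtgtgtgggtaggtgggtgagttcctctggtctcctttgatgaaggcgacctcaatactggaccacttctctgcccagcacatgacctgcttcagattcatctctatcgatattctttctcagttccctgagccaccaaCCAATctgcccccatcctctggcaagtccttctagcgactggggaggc
Dclk1 second start, chr3:55461478-55461727, plus strand: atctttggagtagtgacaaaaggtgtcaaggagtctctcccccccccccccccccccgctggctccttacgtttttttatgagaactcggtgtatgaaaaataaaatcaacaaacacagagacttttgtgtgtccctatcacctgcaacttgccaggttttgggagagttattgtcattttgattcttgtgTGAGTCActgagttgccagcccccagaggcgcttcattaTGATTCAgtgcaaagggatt
Map1b, chr13:99516603-99516852, minus strand: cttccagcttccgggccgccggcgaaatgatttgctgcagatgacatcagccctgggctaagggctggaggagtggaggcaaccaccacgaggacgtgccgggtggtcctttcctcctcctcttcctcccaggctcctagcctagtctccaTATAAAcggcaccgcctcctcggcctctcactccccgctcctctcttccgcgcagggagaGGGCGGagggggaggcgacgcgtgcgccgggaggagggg
Map2, chr1:66175079-66175328, plus strand: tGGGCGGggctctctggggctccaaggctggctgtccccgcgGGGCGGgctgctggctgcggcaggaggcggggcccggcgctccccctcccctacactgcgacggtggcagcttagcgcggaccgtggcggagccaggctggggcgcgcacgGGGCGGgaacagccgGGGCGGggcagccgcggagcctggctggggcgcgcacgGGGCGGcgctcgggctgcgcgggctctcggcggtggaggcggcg

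These windows differ in composition. The second Dclk1 start holds 2 AP-1 matches, TGAGTCA beginning 59 bases and TGATTCA beginning 20 bases before the start site, where 6.75% of the 32851 promoters in the table hold at least 1. The first Dclk1 start holds 1 CCAAT match and no AP-1 match. None of the 4 windows holds a CRE match, which 1.55% of promoters do. Map2 has 5 GC box matches, a GC content of 81.2% and 34 CpG, more GC than 99.1% of promoters, and Map1b has 1 GC box and 1 TATAAA with 66.4% GC. The Dclk1 windows have 52.4% and 46.8% GC with 4 CpG each. A match is a run of letters and not a measured site, and the labels and probes do not tie a Dclk1 probe to either start.

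No difference between probes of a gene in their genotype difference was detected. In 9 comparisons of a further probe with the probe that stands for the gene, the difference of differences lay between −0.05 for Map2 and 0.20 for Dclk1 A_51_P270355. The exact two-sided permutation test of 5 against 5 mice gave p from 0.294 to 0.976, and the adjusted p was 0.976 in all 9. For Dclk1 A_51_P270355 the per-mouse difference between probes had an SD of 0.28 in WT and 0.30 in cKO mice, so a transcript-specific change of that size was not detectable here. Over mice of both genotypes pooled, 5 of the 9 probe pairs correlated past the threshold, those of Map1b, Map2, Stmn1 and Stmn4 and 1 of Mapt. After genotype means were removed, their r was 0.90, 0.89, 0.99, 0.83 and 0.52 in that order. Without the 2 farthest mice it was 0.87, 0.67, 0.97, 0.64 and 0.53.

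The other members varied less between mice than Map1b and Stmn1. Residual SD was 0.07 for Mapt, 0.08 for Map1a, 0.08 for Stmn3 and 0.09 for Stmn4, below the median of 0.12 over all features. It was 0.10 for Stmn2, 0.10 for Gap43, 0.12 for Dclk1 and 0.18 for Map2. Of the 10 genes, 5 had their highest value in cKO replicate 5, 2 in cKO replicate 1 and 2 in cKO replicate 2, and 4 had their lowest value in WT replicate 2.

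Correlations between member genes over the 10 mice depended on scaling. Of 45 pairs, 10 passed by Pearson's r after adjustment and 2 by both r and rho. By r, 26 pairs passed with scaling between arrays, 13 with Cy5 alone, 7 with processed signals and 6 with median centring. Map2 and Gap43 had r = 0.93 and rho = 0.88 (permutation p = 0.00016 and 0.00155, adjusted 0.00697 and 0.0378), and r = 0.83 without the 2 farthest mice. Stmn3 and Stmn4 had r = 0.91 and rho = 0.88 (permutation p = 0.00031 and 0.00168, adjusted 0.00697 and 0.0378), and r = 0.84 without the 2 farthest mice. With the Cy5 channel alone r was 0.16 for Map2 and Gap43 and 0.15 for Stmn3 and Stmn4, and the first pair was at 0.51 with median centring. Mapt and Stmn2 had r = 0.82 and rho = 0.84 (permutation p = 0.00438 and 0.00364, adjusted 0.0436 and 0.0546), r = 0.88 without the 2 farthest mice, and 0.47 with scaling between arrays. Map1b and Dclk1 were the only pair to pass with a negative sign, at r = −0.80 and rho = −0.82 (permutation p = 0.00575 and 0.00599, adjusted 0.0436 and 0.0626). That pair was at −0.71 without the 2 farthest mice and at 0.02 with median centring. Only the Dclk1 probe A_55_P2204804 gave this negative correlation. With A_51_P270355, Map1b had r = 0.27 and rho = 0.26 (permutation p = 0.445 and 0.471, adjusted over 3 probes 0.668 and 0.706), and r = 0.46 without the 2 farthest mice. With A_55_P2148748, filed under the same transcript as A_55_P2204804, Map1b had r = −0.02 and rho = 0.14 (permutation p = 0.958 and 0.708). Without the 2 farthest mice that r was 0.67. After slide means were removed, r was 0.89 for Map2 and Gap43, 0.89 for Stmn3 and Stmn4, 0.89 for Mapt and Stmn2 and −0.85 for Map1b and Dclk1. With genotype means removed instead, r was 0.93, 0.94, 0.74 and −0.80 in the same order. These 4 pairs were chosen after their values were seen.

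**Figure D4:**
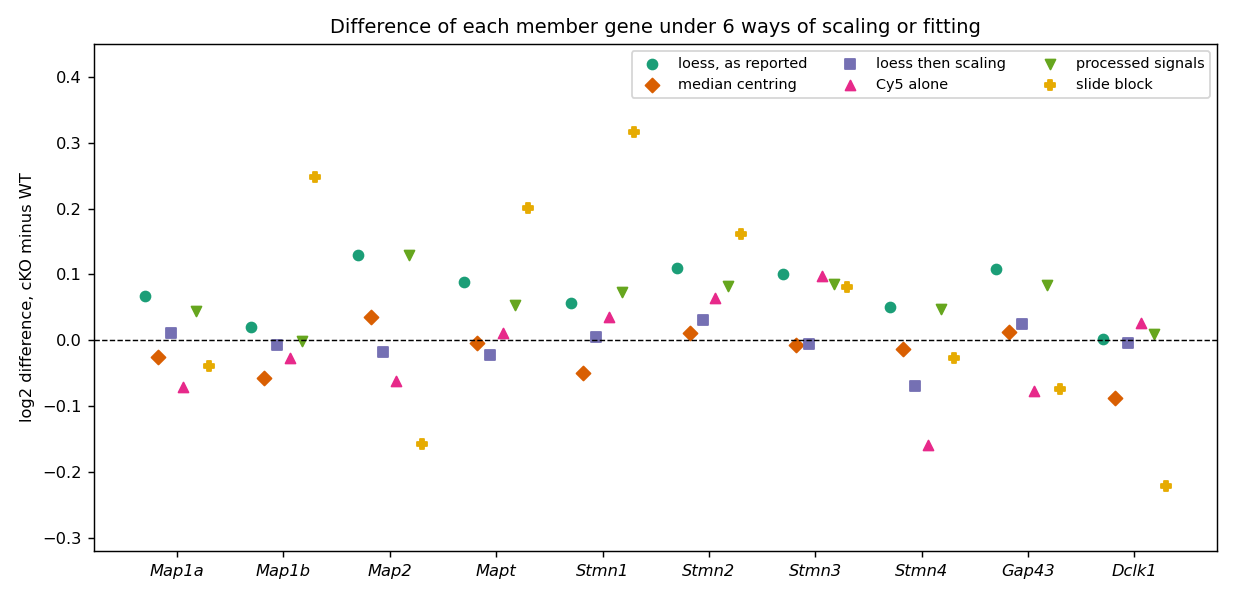
Difference in log2 ratio, cKO minus WT, of each of the 10 member genes under 6 ways of scaling or fitting, with 1 symbol per way. Circles, the values as reported, all lie at or above 0, while median centring leaves 3 of 10 above 0 and the slide block spreads the genes from −0.22 for Dclk1 to 0.32 for Stmn1.

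Other genes that act on microtubules gave a like picture in the loess fit. Counts and medians of all lists come from that fit and were not read under the alternatives. Median centring took all features from 54.7% above 0 to 25.7%. No direction is therefore given for the pathway lists. Of 43 further microtubule regulators 38 were measured, 23 with a difference above 0 and 15 below, with a median of 0.02 and 0 called. Map7, which recruits kinesin to microtubules, differed by 0.12 (SE 0.06), Tppp, a tubulin polymerising protein of oligodendrocytes, by 0.11 (SE 0.06), the plus-end protein gene Mapre1 by −0.07 (SE 0.06) and Tacc1 by −0.06 (SE 0.07). The highest difference in the list, named after its value was seen, was that of Dclk2, a relative of Dclk1, at 0.51 (SE 0.39), with WT mice from 0.14 to 2.77 and cKO mice from 2.32 to 2.70. Growth cone proteins were all 25 measured, 16 above 0 and 9 below, with a median of 0.04 and 0 called. Cap2, an actin-binding protein, differed by 0.15 (SE 0.06) and the catenin gene Ctnnd2 by 0.20 (SE 0.08), while the drebrin gene Dbn1 differed by −0.05 (SE 0.07) and Marcks by −0.05 (SE 0.07).

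Kinases and phosphatases that act on MAPs were measured in 28 of 28 cases, 24 above 0 and 4 below, with a median of 0.05 and 0 called. Mapk10, the neuronal JNK3, differed by 0.16 (SE 0.06) and Camk2b by 0.14 (SE 0.06), while Dyrk1a differed by −0.09 (SE 0.06) and Mapk3 by −0.08 (SE 0.06). Of 14 genes of DLK and JNK signalling, 9 lay above 0 and 5 below, and 1 was called, Map3k12, the targeted gene. Jun, the transcription factor that gives JNK its name, differed by −0.42 (SE 0.18, unadjusted p = 0.0350, limma adjusted p = 0.999945), and the scaffold gene Mapk8ip2 by 0.12 (SE 0.06). Mapk8, Mapk9 and Mapk10 are in both lists. At an unadjusted p under 0.05 these 4 lists held 0, 2, 3 and 3 genes, against 3.86% of all features.

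Marker lists were read beside the tissue label, and a list above the reference does not tell hippocampus from other brain regions. Neuronal genes were measured in 16 of 16 cases. Their list means were 4.18 to 4.34 in WT and 4.27 to 4.43 in cKO mice. In the loess fit all 16 differences lay above 0 with a median of 0.10 and 0 called, beside 0.08 over the members. The lists were not read under other scalings, so no direction is given for the neuronal list. The neuronal markers leading by p were Nefm, a neurofilament chain, at 0.24 (SE 0.08) and Tubb3 at 0.15 (SE 0.07). Dentate granule, CA1 and CA2 and CA3 lists were above the reference in every mouse, with 12 of 12, 9 of 10 and 11 of 12 genes measured and median differences of −0.05, 0.06 and 0.10. Choroid plexus and ependyma genes had a median difference of 0.63 over 15 genes, with 9 of 15 at an unadjusted p under 0.05 and 0 called. Their list means were 0.55 to 1.59 in WT and 1.46 to 2.61 in cKO mice, above the reference in every mouse. How much of these ventricular epithelia each sample held was not tested. Interneuron genes had a median difference of 0.11, oligodendrocyte precursors 0.07, astrocytes 0.06, microglia 0.06, endothelium and pericytes 0.12 and newborn neurons 0.09, each with 0 called. At an unadjusted p under 0.05 these 6 lists held 2, 1, 0, 0, 4 and 0 genes. The neuronal, dentate granule, CA1 and CA2 and CA3 lists held 1, 1, 1 and 0, and the share over all features was 3.86%.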

How the data were processed

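Scanner files of 10 arrays were used, 1 per mouse. Per the file headers, the authors deposited median spot and background intensity from Agilent Feature Extraction 11.0.1.1, not normalised. Per the same headers, the authors' scanner software also gave processed intensity and its log10 ratio, after correcting background and dye bias. A table of log2 values was deposited too, and the submitters' processing notes name limma. Its columns correlated at 0.999975 or more with the log2 ratios computed here, with column medians of 0.0120 to 0.0204, so it holds log2 of Cy5 over Cy3 with no centring of genes; it served as an alternative only. Array annotation is on another build than the gene table, so no coordinates of the gene table are given.

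Backgrounds were corrected with normexp (offset 50) in limma 3.58.1, R 4.3.3, after removing spots marked as non-uniform, and log ratios were normalised by loess within arrays with 1377 control spots of 44397 at weight 0. This order of removing marked spots follows an earlier choice made with both outcomes seen: with all spots in the fit no gene passes. Spots marked as population outliers were then removed and spots of a probe averaged; probes well above background in Cy5 on at least 5 arrays were kept. Accessions without versions named 26581 probes through the RefSeq table of GRCm38.p6. The kept probe with the highest mean log2 intensity over both channels and all arrays stood for its gene. Genotypes were compared with lmFit and eBayes in limma, two-sided. The offset pulls ratios of dim spots towards 0. Correlations used 100000 permutations. The test was checked on simulated data with independent normal noise. These had no slide effect and no shift in scaling, so the check does not cover either. Dyes were not swapped, so single ratios include the dye effect, which the genotypes share. The number of arrays limits the precision.

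Members and lists were chosen with earlier results of these data known. All members and their probes are named; from each pathway list the 2 genes with the smallest unadjusted p in each direction, and from each cell type list at most the 2 with the smallest. Alternatives were 26, covering background, scaling, channel, probe filter, slide, weights, replicate number and each mouse left out.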

Additional observations from a re-analysis of the deposited data

Results flagged for a closer look

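In 3 of 40 groups of 5 mice, over the 19 member probes and Map3k12, 1 mouse lay far from the other 4 by Dixon's criterion, which chance meets in about 1 of 20 groups. At the Map1a probe A_66_P140452, WT replicate 2 read 2.67 and the other WT mice 2.79 to 2.80. At the Map1b probe A_55_P1964193, WT replicate 5 read 1.46 and the other WT mice 1.0960 to 1.12, and the same mouse was the highest WT mouse at the other Map1b probe. At the Mapt probe A_55_P2100155, cKO replicate 5 read 4.81 and the other cKO mice 4.54 to 4.59.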

How the results depend on the processing

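No member gene or probe passed the threshold in any of the 26 alternatives, and the lowest adjusted p of a member was 0.448. Counts over all features were 1 gene and 3 probes as reported; they were 0 genes with plain background subtraction, 0 genes and 1 probe with Cy5 alone or when every spot entered the background fit, 0 and 0 within slide 2, and 2 genes with probes averaged per gene. Map3k12 was at −1.79 (limma adjusted p = 0.0587) with plain subtraction, −1.18 (0.103) with Cy5 alone, −1.26 (0.972) with all spots and −1.81 (0.110) within slide 2. Leaving out single mice gave 1 to 2 genes, 2 without cKO replicate 4. The members' median difference was −0.01 with Cy5 alone (−0.00816), −0.00982 with median centring, −0.00490 with scaling between arrays and 0.15 with all spots.

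Signs of single members, none of them called, turned as follows. With Cy5 alone Map1a was at −0.072, Map1b −0.027, Map2 −0.062, Stmn4 −0.16, Gap43 −0.077, and further probes of Map2 −0.0073, of Mapt −0.011, of Stmn4 −0.19, of Dclk1 −0.090. With median centring Map1a was at −0.025, Map1b −0.058, Mapt −0.0040, Stmn1 −0.050, Stmn3 −0.0069, Stmn4 −0.013, Dclk1 −0.087, and further probes of Map1a −0.032, of Map1b −0.013, of Map2 −0.0098, of Stmn1 −0.060, of Stmn4 −0.0099. With scaling between arrays Map1b was at −0.0078, Map2 −0.018, Mapt −0.023, Stmn3 −0.0050, Stmn4 −0.069, Dclk1 −0.0048, and further probes of Map1b −0.011, of Map2 −0.0069, of Stmn4 −0.068. With slide as a fixed block, and equally within slide 2, Map1a was at −0.039, Map2 −0.16, Stmn4 −0.027, Gap43 −0.074, Dclk1 −0.22, and further probes of Map1a −0.012, of Map2 −0.053, of Stmn4 −0.0091, of Dclk1 −0.11. With slide as a random block, at a fitted correlation of −0.130, Stmn1 was at −0.013, and further probes of Map1b −0.010, of Stmn1 −0.032. With array weights Dclk1 was at −0.061. With plain subtraction Dclk1 was at −0.0047, and a further probe of Map1b −0.0022. With processed signals Map1b was at −0.0015, and a further probe of Map1b −0.031. Leaving out single mice moved Map1b between −0.061 and 0.13, the further probe of Map1b between −0.087 and 0.13, Stmn1 between −0.034 and 0.13, the further probe of Stmn1 between −0.053 and 0.13, the further probe of Map1a between −0.024 and 0.12, Dclk1 between −0.048 and 0.046. The correlation of Map1b and Dclk1 was 0.024 with median centring; scalings of correlations and the removal of slide means were added after the data were seen. The cause of these turns was not tested.

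The labels do not say whether same-numbered mice share more than a number. Correlations of their deviations were −0.190, −0.0304, 0.163, −0.379 and −0.562. With the replicate number as a block the member genes kept their differences, with a median of 0.08 and 0 called, and Map3k12 was at −1.41 (limma adjusted p = 0.0162). Unadjusted p under 0.05 then held for 613 features against 917.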
